A study of Mus musculus with 28 samples.

Results

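Fatty acid oxidation was examined in liver RNA through 35 genes chosen by symbol: 19 enzymes and carriers of the mitochondria, 8 proteins of the peroxisome, 7 proteins that occur in both organelles or on other membranes, and the secreted hormone Fgf21. The genes were picked by name, with earlier results of these data known. They are 35 of the 36072 gene symbols in each count file, and 34 of them had at least 10 counts per mouse on average. The same 34 passed the filter on low counts and belong to the 9684 genes tested. Fgf21, the remaining member, had 3.36 counts per mouse on average, whereas Etfdh, the member just above the minimum, had 69.0.

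The livers came from 14 female mice that were 8 weeks old when a cholesterol-rich high-fat diet (HFD) was begun and that were fed it for 12 weeks. Of these, 7 were Apoe-/- mice and 7 were Mif-2-/-Apoe-/- mice, so that both groups lacked Apoe, the apolipoprotein through which the liver clears remnant lipoproteins. Mif-2, whose gene symbol is Ddt, was deleted in the whole animal and not in one cell type, and a wild-type liver is not part of the comparison. The line was bred from Mif-2+/- and Apoe-/- mice, and the study describes the groups as littermates. Each mouse contributed 2 prime-seq libraries, which were summed. Prime-seq reads transcripts close to their 3' ends and attaches a molecular identifier to every captured molecule, so that a count stands for 1 molecule. Levels are given as CPM, the counts of a gene scaled to library size after TMM normalisation, as mean ± SD over 7 mice. Differences are log2 fold changes of Mif-2-/-Apoe-/- over Apoe-/- mice from edgeR, with their standard error (SE). A gene was called at an adjusted p below 0.05 over all 9684 genes.

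As background, long-chain fatty acids enter the mitochondrion as carnitine esters through the carnitine shuttle. In the matrix they are shortened by repeated rounds of dehydrogenation, hydration, dehydrogenation and thiolysis, and the electrons reach the respiratory chain through the electron transfer flavoprotein. Peroxisomes run a parallel pathway that starts with an oxidase, shortens very long-chain and branched-chain acids and bile acid intermediates, and passes the products on to mitochondria. In hepatocytes many genes of both pathways are targets of PPARα, a nuclear receptor for fatty acids that binds with RXR to DR1 elements, which are direct repeats of a half-site with 1 base between them. The resulting acetyl-CoA feeds ketone body synthesis during fasting.

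Promoter sequences are shown for Ech1 and Pex11a, the members with the smallest p on either side, and for Hadhb, whose start lies head to head with that of Hadha. The windows come from RefSeq (GRCm38.p6, the assembly that mm10 stands for) and hold 250 bases before and 50 after a start. Windows were found for 30 of the 35 members. Only the bases that lie in no protein-coding gene model are printed, in lower case and on the strand of the gene. The Ech1 stretch is chr7:28825088-28825216 on the plus strand, the Pex11a stretch is chr7:79743132-79743162 on the minus strand, and the Hadhb stretch is chr5:30155163-30155247 on the plus strand.
Ech1: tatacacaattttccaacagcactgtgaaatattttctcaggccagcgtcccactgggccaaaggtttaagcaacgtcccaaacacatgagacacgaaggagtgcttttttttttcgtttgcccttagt
Pex11a: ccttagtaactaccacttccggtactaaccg
Hadhb: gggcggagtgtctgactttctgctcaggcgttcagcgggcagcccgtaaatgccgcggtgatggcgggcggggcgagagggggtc

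The DR1 element was searched as AGGTCANAGGTCA on both strands, with up to 2 mismatches. It was found in 4 of the 32 member windows of full length, against 3.86% of all 32841 such windows, and these 4 matches are shown with 8 bases on either side and the match in capitals. An exact match was found in 0 member windows and in 0.0396% of all windows, and a match with up to 1 mismatch in 0 member windows and in 0.554% of all. The half-site TCAAGGTCA, which shares only the letters AGGTCA with DR1, was found in 0 member windows and in 0.423% of all. A match describes the letters only. The Echs1 match lies at chr7:140116484-140116512 (minus strand, -83 to -71 from the start), the Etfa match at chr9:55512300-55512328 (minus strand, -77 to -65, the repeat on the opposite strand), the Slc25a20 match at chr9:108662134-108662162 (plus strand, 7 to 19) and the Acox2 match at chr14:8258810-8258838 (minus strand, 10 to 22).
Echs1: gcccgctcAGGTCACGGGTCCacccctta
Etfa: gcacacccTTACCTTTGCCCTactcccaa
Slc25a20: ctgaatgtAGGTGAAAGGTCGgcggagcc
Acox2: gctgtcccAGGACAGAGGTGAgtcaagag

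Ddt, the gene that encodes MIF-2, had 84 to 316 counts in the Apoe-/- mice (median 193) and 5 to 12 in the Mif-2-/-Apoe-/- mice (median 8), so that no mouse went against its label. Total counts per mouse were 1336787 to 2715022. Mif-2-/-Apoe-/- mouse 2 had the highest shares of counts in ribosomal RNA genes (51.8%) and in mitochondrial genes (21.5%). It also had the lowest TMM factor at 0.709. Mitochondrial ribosomal RNA genes count in both shares. Apoe-/- mouse 7 was next in ribosomal RNA genes, at 47.4%. The summed hepatocyte markers, of which 10 of 11 were in the files and all 10 were tested, were at 36596 ± 5979 CPM in Apoe-/- and 39374 ± 7344 CPM in Mif-2-/-Apoe-/- mice (n = 7 each). Skeletal muscle markers summed to 29.1 to 42.2 CPM in the Apoe-/- mice and 23.1 to 65.7 CPM in 6 Mif-2-/-Apoe-/- mice, but to 8525 CPM in Mif-2-/-Apoe-/- mouse 3. Of 16 marker sums and quality measures, 0 differed between the groups in exact two-sided permutation tests (lowest adjusted p = 0.600, unadjusted p = 0.131). The 9 Kupffer cell markers summed to 843 ± 75.0 CPM in Apoe-/- and 993 ± 293 CPM in Mif-2-/-Apoe-/- mice (unadjusted permutation p = 0.264). Of these 9 markers 1 was itself called, where 0.217% of all genes were called. It was Timd4, at 6.20 ± 3.07 CPM in Apoe-/- and 14.9 ± 4.58 CPM in Mif-2-/-Apoe-/- mice (edgeR adjusted p = 0.0373). Cpt1b, the muscle form of the carnitine shuttle enzyme, had 2 counts in all 14 mice together.

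The comparison asks whether loss of Mif-2 altered the liver transcripts for burning fatty acids in HFD-fed Apoe-/- mice. Of the 34 members tested, 0 were called higher and 0 lower by edgeR, where 0.134% of all genes were called higher and 0.0826% lower (21 of 9684 in all, 0.217%). At an unadjusted p below 0.05 there were 3 members with higher levels (Ech1, Acadvl and Etfdh) and 1 with a lower level (Pex11a) in Mif-2-/-Apoe-/- mice, against 7.37% and 5.49% of all genes (12.9% in either direction). DESeq2 on the same genes called 1 member, Ech1, against 0.702% of all genes, and had 6 members at an unadjusted p below 0.05 against 12.7%. In 0 of the 34 members did the groups fail to overlap, compared with 0.279% of all genes. The 95% intervals of 32 members lay within 1 log2 unit on either side of zero, and the bounds of all 34 ran from -1.09 to 1.22. In bulk liver, fewer cells of a type and less RNA per cell cannot be told apart.

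The mitochondrial and the peroxisomal members are given apart. Of the 19 mitochondrial members, 17 had a positive log2 fold change, with a median of 0.093 and a range of -0.046 to 0.36, while 51.5% of all genes were positive, with a median of 0.011. Of the 8 peroxisomal members, 2 were positive, and the median was -0.052. Of the 7 members of both organelles or other membranes, 3 were positive, and the median was -0.050. These counts describe genes that share mice and libraries and were not tested as sets. Scaling by library totals alone moved the median of all genes to -0.098. The positive members then numbered 9 of 19 mitochondrial (median -0.015) and 2 of 8 peroxisomal ones (median -0.18). Without Mif-2-/-Apoe-/- mouse 4 they numbered 19 and 4, and without mouse 7 of that group 13 and 2. Without Apoe-/- mouse 3 they numbered 14 and 2, and with the first libraries alone 13 and 3.

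**Figure D1:**
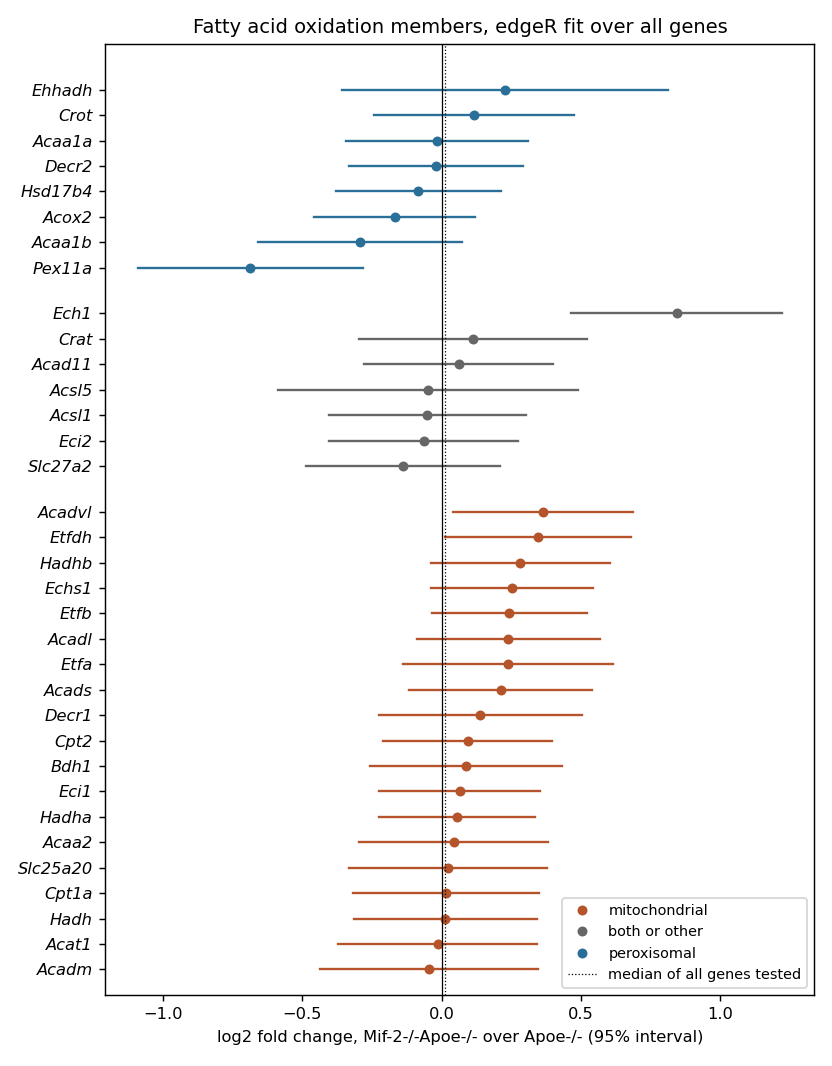
Log2 fold change (horizontal axis, Mif-2-/-Apoe-/- over Apoe-/-) of the 34 members tested, 1 gene per line. Points are edgeR estimates, bars are 95% intervals and the dotted line is the median of all genes tested; the intervals of Ech1, Acadvl and Etfdh lie above zero and that of Pex11a below it, whereas the others include zero.

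The 3 members of the carnitine shuttle, the entry to the mitochondrion, differed little. Cpt1a, the enzyme of the outer membrane that sets the rate of entry, ranged from 74.6 to 126 CPM in Apoe-/- mice (median 91.8) and from 69.6 to 122 CPM in Mif-2-/-Apoe-/- mice (median 101). The groups overlapped over nearly their whole range, and the log2 difference was 0.016 (SE 0.16, 95% interval -0.32 to 0.35, adjusted p = 0.974, n = 7 per group). Slc25a20, the translocase of the inner membrane, had a mean of 75.1 CPM against 76.8 CPM. Cpt2, which hands the acyl group back to coenzyme A, had 80.1 CPM against 85.7 CPM, a log2 difference of 0.093.

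The acyl-CoA dehydrogenases carry out the first step of each round, and each prefers a chain length. Acadvl, for very long chains, ranged from 110 to 187 CPM in Apoe-/- mice (median 161) and from 130 to 239 CPM in Mif-2-/-Apoe-/- mice (median 205). Of the 7 Mif-2-/-Apoe-/- mice, 6 lay above the highest Apoe-/- value, and mouse 2 lay among the lower Apoe-/- values. The log2 difference was 0.36 (SE 0.16), which did not pass the threshold (adjusted p = 0.321), and 0.44 without mouse 2 (adjusted p = 0.107). Acadl, the long-chain enzyme, ranged from 93.0 to 163 CPM (median 136) and from 110 to 191 CPM (median 156), with most mice in the shared range and a log2 difference of 0.24 (SE 0.16, adjusted p = 0.516). Acads, for short chains, had 77.2 CPM against 89.5 CPM on average, a log2 difference of 0.21. Acadm, the medium-chain enzyme, had 172 CPM against 166 CPM, a log2 difference of -0.046. A gene on the opposite strand overlaps Acadvl (Dvl2) and a gene on the same strand overlaps Acadl (Gm15793), as opposite-strand genes do for several other members, and the sources do not say whether reads were counted by strand.

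Hydration, the next dehydrogenation and thiolysis are performed by single enzymes for short chains and by the trifunctional protein for long ones. Echs1, the short-chain hydratase, ranged from 99.9 to 133 CPM in Apoe-/- mice (median 119) and from 115 to 177 CPM in Mif-2-/-Apoe-/- mice (median 125). The lower Mif-2-/-Apoe-/- mice sat among the Apoe-/- mice, and the log2 difference was 0.25 (SE 0.14, adjusted p = 0.435). Hadhb, the thiolase subunit of the trifunctional protein, ranged from 33.6 to 51.1 CPM (median 38.8) and from 29.5 to 62.4 CPM (median 50.4). Mif-2-/-Apoe-/- mouse 4 was below every Apoe-/- mouse and the other 6 Mif-2-/-Apoe-/- mice were above the Apoe-/- mean, with a log2 difference of 0.28 (SE 0.16, adjusted p = 0.433). Hadha, the other subunit, starts 273 bases away on the opposite strand, and the promoter windows of the pair share 228 bases. Its mean was 142 CPM in Apoe-/- mice and 148 CPM in Mif-2-/-Apoe-/- mice, a log2 difference of 0.056. Hadh, the hydroxyacyl-CoA dehydrogenase for shorter chains, had 171 CPM against 173 CPM, and Acaa2, the mitochondrial thiolase, had 410 CPM against 422 CPM.

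The other mitochondrial members handle double bonds and ketone bodies. Eci1 and Decr1 move or reduce double bonds so that unsaturated acids can enter the cycle, and their log2 differences were 0.064 and 0.14. For ketone bodies, Acat1, which condenses acetyl-CoA, had 169 CPM against 168 CPM. Bdh1, which makes β-hydroxybutyrate from acetoacetate, had 129 CPM against 137 CPM.

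The electron transfer flavoprotein and its dehydrogenase take the electrons of all acyl-CoA dehydrogenases. Etfdh, which passes them on to ubiquinone, ranged from 26.5 to 37.5 CPM in Apoe-/- mice (median 33.4) and from 28.0 to 56.6 CPM in Mif-2-/-Apoe-/- mice (median 38.5). Mice 1, 3, 5 and 7 of the Mif-2-/-Apoe-/- group lay above all Apoe-/- mice and the other 3 lay within their range. The log2 difference was 0.35 (SE 0.16, adjusted p = 0.367). Etfa, the α subunit, ranged from 165 to 241 CPM (median 179) and from 146 to 383 CPM (median 203), and the log2 difference of 0.24 (SE 0.18, adjusted p = 0.577) was 0.071 without Mif-2-/-Apoe-/- mouse 7, the mouse at 383 CPM. Etfb, the β subunit, ranged from 280.0 to 394 CPM (median 336) and from 316 to 448 CPM (median 397), and 6 of 7 Mif-2-/-Apoe-/- mice were above the Apoe-/- mean. Its log2 difference was 0.24 (SE 0.13, adjusted p = 0.433). Gene models on the same strand overlap Etfdh (Gm37973) and Etfb (Gm45233 and Gm44816).

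**Figure D2:**
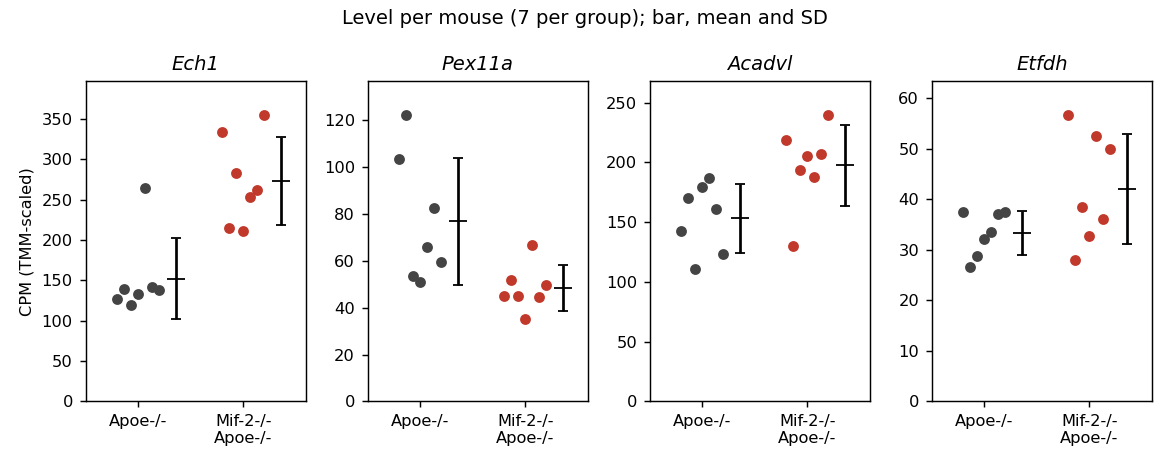
Level of Ech1, Pex11a, Acadvl and Etfdh in CPM (vertical axes from 0) in each of 7 Apoe-/- (grey) and 7 Mif-2-/-Apoe-/- mice (red), in the order of their numbers, with mean and SD beside the points. For Ech1, 6 Apoe-/- mice lie between 119 and 142 CPM and mouse 5 lies at 265 CPM, within the Mif-2-/-Apoe-/- range of 211 to 354 CPM; in the other 3 genes the ranges overlap more.

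Ech1 had the smallest p of all members. It encodes a dienoyl-CoA isomerase for unsaturated acids that is found in both mitochondria and peroxisomes, and it lies at chr7:28825217-28832247 on mm10 with no overlapping gene in the annotation. The Apoe-/- mice had 127, 140, 119, 133, 265, 142 and 138 CPM, and the Mif-2-/-Apoe-/- mice 334, 214, 282, 211, 253, 262 and 354 CPM, each in the order of mouse number. Thus all 7 Mif-2-/-Apoe-/- mice were above 6 of the 7 Apoe-/- mice, and Apoe-/- mouse 5 alone reached into their range. The means were 152 ± 50.4 and 273 ± 55.0 CPM, a fitted ratio of 1.79 and a log2 difference of 0.84 (SE 0.18, 95% interval 0.46 to 1.22).

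This difference narrowly missed the threshold with edgeR (adjusted p = 0.0537, unadjusted p = 0.000139). Without Apoe-/- mouse 5 the log2 difference was 1.03 (adjusted p = 0.00249), where 30 of 9823 genes were called. Without Mif-2-/-Apoe-/- mouse 2 or 4 the adjusted p was 0.0324 and 0.0348, where 118 of 9950 and 25 of 9880 genes were called. These were the 3 of 14 fits without 1 mouse that passed, and the highest adjusted p of the 14 was 0.155. DESeq2 on the same genes gave a log2 difference of 0.85 with an adjusted p of 0.00304. With the gene filter of the study, DESeq2 gave an adjusted p of 0.00142, where 0.573% of all genes were called. With the share of counts in the ribosomal RNA gene CT010467.1 as a covariate, edgeR gave an adjusted p of 0.0451, where 0.279% were called. In all, Ech1 passed in 7 of 25 alternative settings, and the log2 difference was between 0.73 and 1.03 in all of them. The 2 libraries of a mouse gave similar values, with a largest log2 ratio of 0.44 between them in any mouse. Its promoter window, shown above in part, held no DR1 match with up to 2 mismatches.

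**Figure D3:**
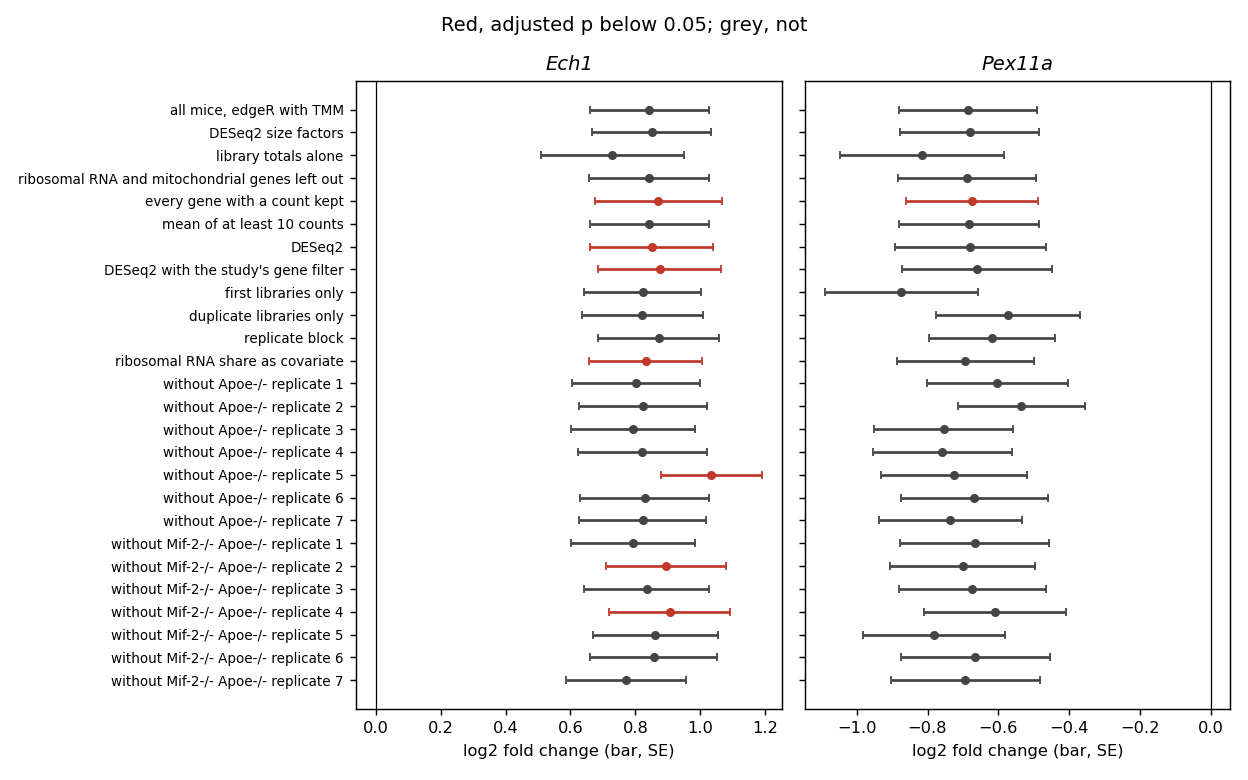
Log2 fold change of Ech1 (left) and Pex11a (right) on the horizontal axes, as fitted over all mice and in each of 25 alternative settings (1 per line), with bars for the SE and red for an adjusted p below 0.05. Ech1 passes in 7 alternatives and Pex11a in 1, and neither changes sign.

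Among the 8 peroxisomal members, Pex11a stood lowest. It encodes a membrane protein that takes part in peroxisome division and is a known PPARα target. It had 104, 122, 53.5, 50.9, 65.7, 82.6 and 59.6 CPM in the Apoe-/- mice and 44.9, 51.7, 45.1, 35.2, 66.8, 44.4 and 49.8 CPM in the Mif-2-/-Apoe-/- mice. All 7 Mif-2-/-Apoe-/- mice were below the Apoe-/- mean, and Apoe-/- mice 1, 2 and 6 were above all of them, but the groups overlapped between 50.9 and 66.8 CPM. The means were 76.9 ± 27.2 and 48.3 ± 9.71 CPM, and the log2 difference of -0.69 (SE 0.20, 95% interval -1.09 to -0.28) did not pass the threshold (adjusted p = 0.144). It passed only when every gene with a count was kept (adjusted p = 0.0330), where 0.954% of all genes were called. A gene model on the opposite strand (Gm44706) overlaps it.

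The other peroxisomal members are enzymes. Acaa1b, 1 of the peroxisomal thiolases, ranged from 917 to 1234 CPM in Apoe-/- mice (median 1121) and from 468 to 1165 CPM in Mif-2-/-Apoe-/- mice (median 963). Of the 7 Mif-2-/-Apoe-/- mice, 6 were below the Apoe-/- mean, and mouse 4 lay apart from the next lowest at 805 CPM. The log2 difference was -0.29 (SE 0.18, adjusted p = 0.475), or -0.17 without mouse 4. Acaa1a, its near-identical paralog, had 160 CPM against 159 CPM, and the split of reads between the pair is uncertain. Ehhadh, the bifunctional enzyme that hydrates and oxidises chain intermediates, was the most variable member among Mif-2-/-Apoe-/- mice, from 37.7 CPM in mouse 4 to 271 CPM in mouse 7, with a coefficient of variation of 62.4%. The Apoe-/- mice lay between 71.8 and 143 CPM. Its log2 difference of 0.23 (SE 0.28, adjusted p = 0.751) was -0.11 without mouse 7 and 0.40 without mouse 4.

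Hsd17b4, the other bifunctional enzyme, needed for branched-chain acids and bile acid intermediates, had 190 ± 23.2 CPM in Apoe-/- and 180 ± 31.2 CPM in Mif-2-/-Apoe-/- mice. Acox2, the oxidase for bile acid intermediates, had 65.7 ± 8.27 CPM and 58.6 ± 10.9 CPM. Decr2, the peroxisomal dienoyl-CoA reductase, had 112 CPM against 111 CPM. Crot, which forms carnitine esters for export to mitochondria, had 246 ± 60.6 CPM against 267 ± 52.5 CPM. The lowest adjusted p among these 4 genes was 0.603, that of Acox2.

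Of the members shared between membranes, Acsl1, Acsl5 and Slc27a2 activate fatty acids to acyl-CoA. Acsl1 had 380 ± 37.5 CPM in Apoe-/- and 367 ± 99.7 CPM in Mif-2-/-Apoe-/- mice. Slc27a2, which also takes up fatty acids at the cell surface, had 435 ± 81.4 CPM and 395 ± 92.3 CPM, a log2 difference of -0.14. Acsl5 varied most among Apoe-/- mice, with 138 CPM in mouse 2 and 38.8 to 60.4 CPM in the other 6. The log2 difference of Acsl5 was -0.050 with all mice and 0.27 without Apoe-/- mouse 2. Acad11, an acyl-CoA dehydrogenase, and Eci2, an enoyl-CoA isomerase, had log2 differences of 0.061 and -0.065.

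Crat, the carnitine acetyltransferase, is used heavily by muscle. It had 30.4 to 50.9 CPM in Apoe-/- mice and 28.3 to 46.8 CPM in 6 Mif-2-/-Apoe-/- mice, against 77.6 CPM in Mif-2-/-Apoe-/- mouse 3. That mouse was the 1 with skeletal muscle markers at 8525 CPM, of which 11 of 11 genes had counts, and the part of muscle RNA in the Crat value was not tested. Without this mouse the log2 difference of Crat went from 0.11 to -0.11.

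Fgf21, the hormone that the liver secretes in fasting, could not be compared. It had 8, 8, 2, 3, 1, 3 and 6 counts in the Apoe-/- mice and 2, 0, 2, 2, 7, 0 and 3 counts in the Mif-2-/-Apoe-/- mice. The ranges of 1 to 8 and 0 to 7 counts overlapped, and a difference was not detectable at this depth.

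Genes outside the 35 members were read from 3 lists. Of 42 other fatty acid oxidation genes, 38 were tested and 0 were called by edgeR or DESeq2, with 28 positive and a median log2 fold change of 0.061. At an unadjusted p below 0.05, 2 of the 38 genes were higher and 2 lower in Mif-2-/-Apoe-/- mice, near the 7.37% and 5.49% of all genes. The higher ones were Hacl1, a lyase of peroxisomal α-oxidation (log2 difference 0.55, SE 0.18, adjusted p = 0.205), and Nudt19, a peroxisomal coenzyme A hydrolase (0.52, SE 0.19, adjusted p = 0.245). The lower ones were Acox3, the branched-chain oxidase (-0.49, SE 0.21, adjusted p = 0.327), and Abcd3, a transporter of the peroxisomal membrane (-0.29, SE 0.13, adjusted p = 0.363).

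The list of PPARα, its partners and further targets held 33 genes, of which 30 were tested and 0 were called by edgeR or DESeq2. Here 12 were positive, and the median log2 fold change was -0.085. Ppara itself ranged from 139 to 312 CPM in Apoe-/- mice (median 169) and from 60.0 to 182 CPM in Mif-2-/-Apoe-/- mice (median 108). All 7 Mif-2-/-Apoe-/- mice lay below the Apoe-/- mean, the groups overlapped, and the log2 difference was -0.69 (SE 0.22, 95% interval -1.14 to -0.24, adjusted p = 0.188). Cyp4a10, a fatty acid ω-hydroxylase, had 470 ± 146 CPM against 290 ± 96.7 CPM, a log2 difference of -0.70 (SE 0.23, adjusted p = 0.201), and again 7 of 7 Mif-2-/-Apoe-/- mice were below the Apoe-/- mean.

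Aldh3a2, which oxidises fatty aldehydes, had 162 CPM against 116 CPM (log2 difference -0.48, SE 0.20, adjusted p = 0.315), and Cd36, a fatty acid transporter, had 120 CPM against 95.5 CPM (-0.33, SE 0.14, adjusted p = 0.320). In all, 4 genes of this list were lower and 1, Txnip, was higher (log2 difference 0.42) at an unadjusted p below 0.05, against 5.49% and 7.37% of all genes. Cyp4a12a was not among the genes tested, and it was called only when every gene with a count was kept (log2 difference -3.83). It had 114 counts in Apoe-/- mouse 2 and 44 in Apoe-/- mouse 6, and at most 5 in any other mouse.

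Of 19 peroxisome biogenesis genes, 17 were tested and 0 were called by edgeR or DESeq2, with 8 positive and a median log2 fold change of -0.050. Pex2, a ubiquitin ligase subunit of the import machinery, had 21.8 against 30.3 CPM (log2 difference 0.48, SE 0.17, adjusted p = 0.230). Pxmp2, a channel of the peroxisomal membrane, had 56.5 against 74.6 CPM (0.41, SE 0.19, adjusted p = 0.376). These were the 2 of 17 genes at an unadjusted p below 0.05. Both were higher, against 7.37% of all genes, and 0 were lower, against 5.49%. Pex7, an import receptor, and Pex14, a docking protein, had log2 differences of 0.34 and -0.21.

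Many members were low in the same mice and high in the same mice. Within the Apoe-/- group, mouse 3 was lowest in 18 of 34 members (52.9%, against 18.7% of all genes) and mouse 5 was highest in 15 (44.1%, against 11.5%). Within the Mif-2-/-Apoe-/- group, mouse 4 was lowest in 21 (61.8%, against 16.7%) and mouse 7 was highest in 16 (47.1%, against 14.4%). For mouse 4 these were 11 of the 19 mitochondrial and 6 of the 8 peroxisomal members. Mouse 4 had the most counts of all mice, 2715022, and the lowest shares of ribosomal RNA (17.7%) and mitochondrial genes (8.82%). Of its group, mouse 4 also had the highest sums of periportal hepatocyte (1810 CPM, next 1743), Kupffer cell (1414, next 1378) and endothelial markers (208, next 207). Mouse 7 had the highest sums of hepatocyte markers (51358 CPM, next 45066) and of pericentral hepatocyte markers (4805 CPM, next 4413) in its group. Its sums of stellate cell (645 CPM, next 632) and lymphocyte markers (8.67 CPM, next 8.11) were the highest as well. Apoe-/- mouse 3, by contrast, had 1484954 counts, with 41.6% in ribosomal RNA genes and 17.6% in mitochondrial genes, the latter the highest share of its group. For Apoe-/- mouse 5 these values were 2433432 counts, 25.5% and 13.9%. The part of these measures in the member levels was not tested.

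**Figure D4:**
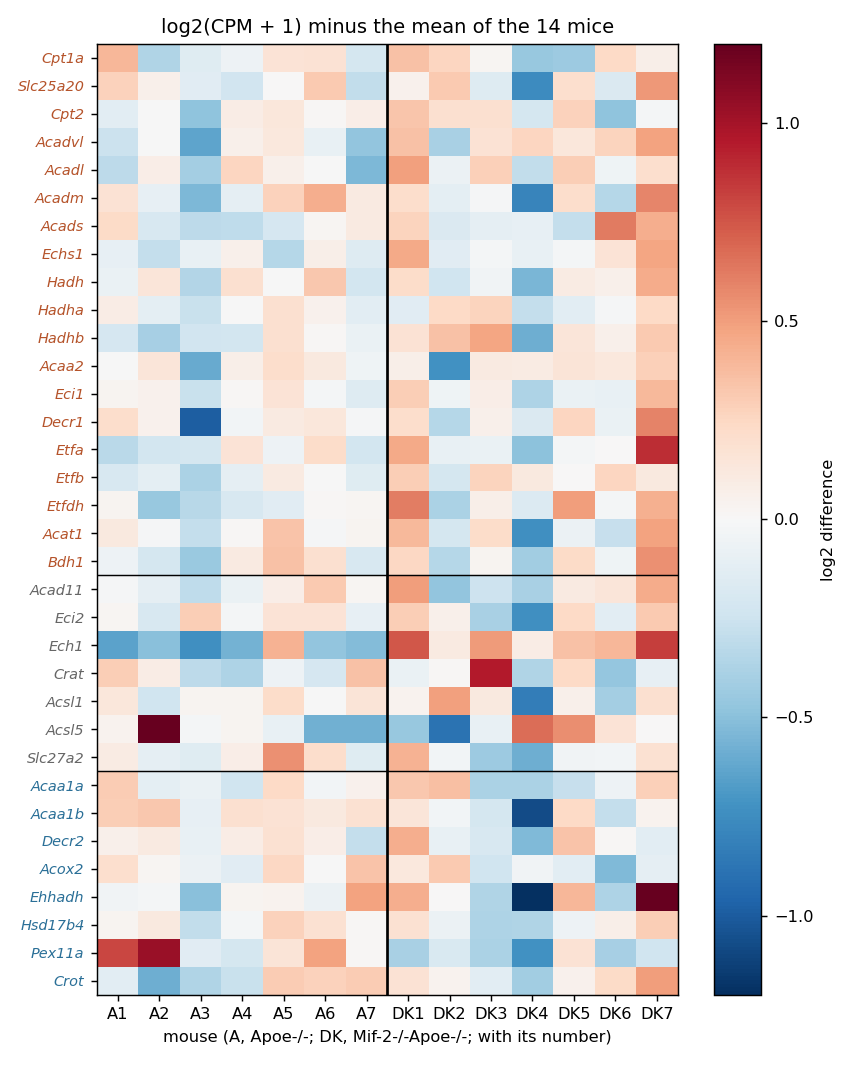
Log2(CPM + 1) of the 34 members tested (rows, mitochondrial at the top, peroxisomal at the bottom) in each of the 14 mice (columns), minus the mean of the gene over all mice; red is above and blue below that mean, and the scale ends at 1.2 log2 units on either side. Columns A3 and DK4 are mostly blue, with 18 and 21 members at the lowest value of their group, and column DK7 is mostly red, with 16 at the highest.

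The mean of the centred log2(CPM + 1) values gives 1 value per mouse. Over the 19 mitochondrial members it was -0.062 ± 0.16 in Apoe-/- mice (-0.37 to 0.10) and 0.062 ± 0.24 in Mif-2-/-Apoe-/- mice (-0.31 to 0.39). Over the 8 peroxisomal members it was 0.071 ± 0.15 (-0.20 to 0.20) and -0.071 ± 0.31 (-0.62 to 0.26). In both organelles the groups overlapped, and the means of the groups differed by less than the SD of the Mif-2-/-Apoe-/- mice. Mif-2-/-Apoe-/- mouse 4 was low in both (-0.31 and -0.62) and mouse 7 high in both (0.39 and 0.26), whereas mouse 3 was at 0.097 for the mitochondrial and -0.28 for the peroxisomal members.

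**Figure D5:**
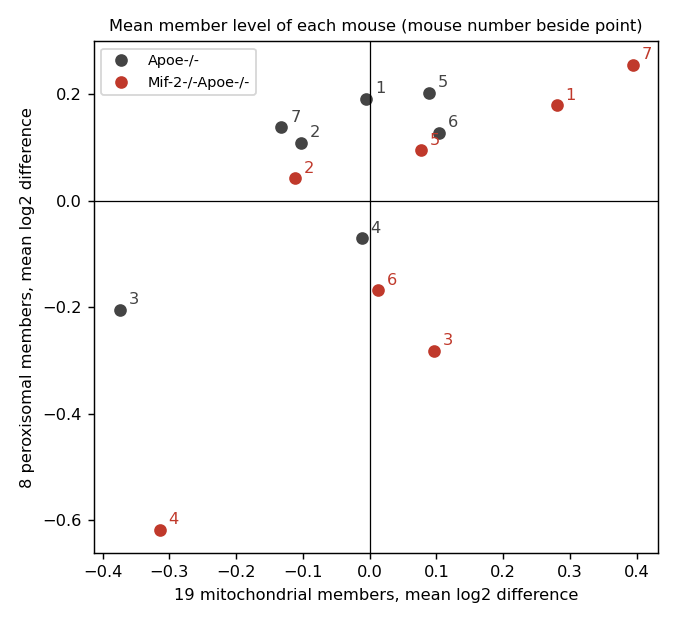
Mean log2 difference of the 19 mitochondrial members (horizontal axis) and of the 8 peroxisomal members (vertical axis) from the mean of all 14 mice, 1 point per mouse with its number, grey for Apoe-/- and red for Mif-2-/-Apoe-/-. The Mif-2-/-Apoe-/- mice reach from mouse 4 (-0.31 and -0.62) to mouse 7 (0.39 and 0.26), beyond the Apoe-/- mice on 3 sides.

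The spread between mice was wider in the Mif-2-/-Apoe-/- group. The coefficient of variation was larger there than in Apoe-/- mice in 28 of 34 members (median ratio 1.46), but the same held for 72.0% of all genes (median ratio 1.29). Without Mif-2-/-Apoe-/- mouse 2 the count was 25 of 34 against 63.0% of all genes, and without mouse 4 it was 27 with a median ratio of 1.27. Between the 2 libraries of a mouse, the SD of the log2 ratio had a median of 0.23 over members (0.097 to 0.37), compared with SDs over mice of 0.21 in the Apoe-/- and 0.34 in the Mif-2-/-Apoe-/- group. The ratio sets single libraries against each other, whereas the SD over mice is that of the 2 libraries summed.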

How the data were processed

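Liver RNA of 14 mice was read in 28 prime-seq libraries, 2 per mouse. The deposited values are whole-number counts of molecules per gene symbol, which the authors made with the zUMIs pipeline on genome build mm10 (build per the submitters' processing notes) and did not normalise. The annotation release and the use of strand are not given in the sources used here. Library totals were 541651 to 1531192 counts, and 0 pairs of libraries were identical. The 2 libraries of each mouse were summed, since they are 1 animal, and mice were grouped by the labels. Replicate numbers come from the mouse names and were not used to pair the groups in the main fit.

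Genes were kept by filterByExpr, scaled by TMM and tested with the quasi-likelihood F test of edgeR (two-sided, Benjamini-Hochberg over 9684 genes). The study modelled RNA integrity together with genotype. Those integrity values were not used here, since the labels do not give them. Marker sums were compared by exact permutation over mice. Alternatives were DESeq2 with and without the study's gene filter, other scalings and filters, either library alone, a replicate block and leaving out each mouse. The ribosomal RNA share as a covariate was added after seeing the data. It was the log2 share of counts in CT010467.1 alone, not in all ribosomal RNA genes. Gene positions came from GENCODE M21, matched by symbol for 34792 of 36072 symbols, with 1280 unmatched.

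The members and lists were chosen with earlier results of these data known. Named are all members, Ddt, Ppara and up to 4 genes of each list with the smallest p; Cyp4a12a, Txnip, Cpt1b and Timd4 were named after their values were seen. Some genes that the rule takes are not reported here. Lowest, median and highest values or values per mouse are given for members with an unadjusted p below 0.05, for Fgf21 and Cpt1a, and for 6 further members with the largest differences. Versions were R 4.3.3, edgeR 4.0.16, DESeq2 1.42.0, Python 3.11.15, pandas 2.3.3 and scipy 1.17.1.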

Additional observations from a re-analysis of the deposited data

Results flagged for a closer look

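Of 68 groups of 7 member values, 6 held a mouse whose gap to its nearest neighbour was unusually wide for the range of its group, and chance alone marks about 1 group in 20. Acaa2 was at 269 CPM in Apoe-/- mouse 3, with the next lowest at 394 CPM, and at 248 CPM in Mif-2-/-Apoe-/- mouse 2, with the next lowest at 428 CPM. Decr1 was at 38.7 CPM in Apoe-/- mouse 3, with the next lowest at 76.3 CPM. Ech1 was at 265 CPM in Apoe-/- mouse 5, with the next highest at 142 CPM. Crat was at 77.6 CPM in Mif-2-/-Apoe-/- mouse 3, with the next highest at 46.8 CPM. Acsl5 was at 138 CPM in Apoe-/- mouse 2, with the next highest at 60.4 CPM.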

How the results depend on the processing

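The counts of called members and genes moved with the settings. With every gene with a count kept, 1 member was called higher (Ech1), 1 lower (Pex11a), 1 gene of the PPARα list lower (Cyp4a12a) and 344 genes in all. DESeq2 called 1 member (Ech1) and 68 genes, DESeq2 with the study's gene filter 1 member (Ech1) and 97 genes, the first libraries alone 0 members and 11 genes, and the ribosomal RNA share as a covariate 1 member (Ech1). The causes were not tested. Leaving out 1 mouse at a time gave 0 to 1 members called higher and 7 to 118 genes, the most without Mif-2-/-Apoe-/- mouse 2, and a median log2 fold change of 0.030 to 0.17 for mitochondrial and -0.13 to 0.013 for peroxisomal members. With library totals alone these medians were -0.015 and -0.18. Of 1149 values of 46 single genes under the alternatives, 1068 kept their direction and their side of the threshold, 8 newly passed it and 73 changed sign, all of these from values that had not been called.

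Sign changes by setting, as log2 fold changes, were as follows. With library totals alone they were -0.11 for Cpt1a and Slc25a20 each, -0.018 for Cpt2, -0.098 for Hadh, -0.066 for Hadha, -0.047 for Acaa2, -0.054 for Eci1, -0.015 for Bdh1 and -0.038 for Acad11. With every gene kept they were 0.012 for Acat1, 0.0062 for Acaa1a and 0.0051 for Decr2, and under DESeq2 with the study's gene filter 0.016, 0.012 and 0.0063 for the same genes. With the first libraries alone they were -0.041 for Cpt1a, -0.014 for Hadh, -0.018 for Hadha, -0.0082 for Acaa2, 0.031 for Acaa1a, -0.047 for Acad11 and -0.0024 for Crat. With the duplicate libraries alone they were -0.026 for Slc25a20, -0.012 for Hadh and 0.060 for Decr2. With the CT010467.1 share as a covariate it was -0.0033 for Acaa2.

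Over the fits without 1 mouse, the ranges that crossed zero were -0.041 to 0.097 for Cpt1a, -0.077 to 0.14 for Slc25a20, -0.17 to 0.068 for Acadm, -0.069 to 0.10 for Hadh, -0.035 to 0.14 for Acaa2, -0.00024 to 0.14 for Eci1, -0.11 to 0.093 for Acat1, -0.0085 to 0.17 for Bdh1, -0.078 to 0.050 for Acaa1a, -0.10 to 0.065 for Decr2, -0.11 to 0.40 for Ehhadh, -0.025 to 0.14 for Acad11, -0.13 to 0.041 for Eci2, -0.11 to 0.20 for Crat, -0.15 to 0.060 for Acsl1 and -0.18 to 0.27 for Acsl5.

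Over 4445 genes, 2 of 7 equal-numbered pairs had deviations that correlated above 0.1 (range -0.43 to 0.15). Of the Mif-2-/-Apoe-/- mice 2 matched their own number best, and of the Apoe-/- mice 0. The labels do not say whether equal numbers mark paired animals, and correlated levels cannot settle it. A replicate block called 14 genes against 21 without it and 0 members, and changed the sign of Acsl5 (0.038). Mouse totals of 1336787 to 2715022 counts leave low genes such as Fgf21 without a comparison.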
